A study of Homo sapiens with 4 samples.

Results

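The genes described here are 9 human genes that carry reading frames of retroelement origin: PNMA1, PNMA2, PNMA3 and PNMA5 of the paraneoplastic Ma antigen family, LDOC1 and ARC, and the endogenous retrovirus genes ERV3-1, ERVMER34-1 and ERVK3-1. They were chosen by name, as the rows of the deposited gene table whose name equals a gene symbol, out of 40877 names that stand for 1 gene. The choice was made with earlier values of the same libraries in view, so the ratios below describe these genes and test nothing. All 9 names were found in the table.

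The study treated 2 established human lines, H1299 from a non-small cell lung cancer and HCT116 from a colorectal cancer, and sequenced RNA of single cells with a 10x Genomics kit that reads the 5′ end of transcripts. Control cells of each line received the solvent DMSO. The treated cells, called DAC+SB here, received 500 nM of DAC (decitabine, an inhibitor of DNA methyltransferases) for 72 h and 500 nM of SB939 (an inhibitor of histone deacetylases) for 18 h, with fresh compound every 24 h. All cells were between passage 5 and passage 10, and each of the 4 combinations was 1 library of 1 established line, so no value below has a replicate and no test was made. The deposited counts were summed per library and are given on the counts-per-million scale (CPM) of gene plus transposable element (TE) counts. Intervals are 95% intervals that cover counting error only, not variation between cultures.

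Host genomes have kept a number of coding regions from retroelements. The PNMA genes, LDOC1 and ARC descend from the gag region of Ty3-like retrotransposons, the region that encodes the capsid, and the ARC protein, best known from neurons, assembles into capsid-like particles that can carry RNA. Antibodies to PNMA1 and PNMA2 occur in patients with paraneoplastic neurological disease, and several PNMA genes are transcribed mainly in brain or testis. ERV3-1 and ERVMER34-1 are envelope genes of endogenous retroviruses that kept a long reading frame, and both are known from placenta. DNA methylation and histone deacetylation are among the means by which cells keep retroelements and germ cell genes silent.

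The 4 libraries held 15289 cells and between 38927267 and 64524196 counts each. The treated HCT116 library was the shallowest, with a median of 8449.0 counts per cell against 15784.5 to 17369.5 in the others. It also had the highest median mitochondrial share, 18.6%, against 8.33% to 15.8%. Of the cell barcodes, 131 occurred in more than 1 library (262 cells). A list of 10 markers of HCT116-type epithelium (among them EPCAM and CDX2) summed to 137 and 83.2 CPM in the DMSO and DAC+SB libraries of HCT116 and to 0.418 and 16.7 CPM in those of H1299, and a list of 10 mesenchymal markers (among them VIM and AXL) to 2879 and 1425 CPM in H1299 and 252 and 343 CPM in HCT116. The sum of each list was thus higher in the line it stands for, but single genes could differ and markers moved with treatment. SNAI2, a mesenchymal marker, was lower in H1299 (0.0930 and 0.545 CPM, DMSO first) than in HCT116 (2.86 and 10.4 CPM). LGALS4 and ESRP1, epithelial markers, were higher in treated H1299 than in treated HCT116. The other genes of both lists were not lower in their own line under either treatment. In H1299 11.0% of all genes with 100 counts were at least 4-fold higher with DAC+SB. The 4 epithelial genes that reached 100 counts there were all past 4-fold, with a median log2 ratio of 5.18. Their counts went from 1 to 279 (EPCAM), 3 to 100 (LGALS4), 6 to 182 (ESRP1) and 10 to 368 (CLDN4). No gene of the epithelial list had more than 10 counts in H1299 DMSO, so any that reached 100 was past 4-fold by necessity. Nothing is read from that number or median. KRT20 had 0 counts in both libraries. Of the mesenchymal genes in HCT116 VIM went from 2947 to 10321, CAV1 from 10097 to 1390 and AXL from 1392 to 84, with 2 of the list at least 4-fold higher and 2 lower, beside 9.63% and 3.69% of all genes. Of the epithelial list in HCT116 CDH1, KRT20 and ELF3 were at least 4-fold higher and ESRP1 lower, and EPCAM made up 80.7 and 45.2 CPM of the epithelial sum. VIM alone made up 2282 and 1151 CPM of the mesenchymal sum in H1299 and 47.0 and 265 CPM in HCT116. Of the mesenchymal list in H1299 SPARC (16 to 586 counts) was at least 4-fold higher and AXL (13166 to 1331 counts) lower. The other 7 with 100 counts were within 4-fold. A list of 10 neuronal markers summed to 127 and 283 CPM in H1299 and 92.2 and 344 CPM in HCT116, DMSO first. Without cells above 25% mitochondrial counts the same genes of the 9 were past 4-fold, and PNMA5 in HCT116 had a log2 bound of 9.69 in place of 9.85. Shares of cells are also given at equal depth below. The part of the markers in the results was not tested. In sums over a library, more cells with a transcript and more transcript per cell cannot be told apart, which is why shares of cells are given as well.

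PNMA5, a gag-derived gene on the X chromosome (152988824 to 152994127, minus strand, GRCh38), went from near absence to a moderate level in both lines. H1299 had 1 count with DMSO (0.0155 CPM, 0.000392 to 0.0863) and 1631 counts with DAC+SB (26.1 CPM, 24.9 to 27.4). HCT116 had 0 counts with DMSO, set here to a floor of 3 counts (0.0479 CPM; the exact interval reaches 0.0589), and 1724 counts with DAC+SB (44.3 CPM, 42.2 to 46.4). Both treated libraries thus lay far above both controls, with no overlap of the intervals. The log2 ratio was 10.72 (8.24 to 16.02) in H1299, from a single control count, and in HCT116 the gene was at least 925-fold higher than the floor. Such a bound leaves out the counting error of the treated library and uses a floor below the exact upper limit. The exact lower limit of the PNMA5 log2 ratio in HCT116 was 9.55, against 9.85 for the bound. Between the treated libraries, HCT116 was 1.70 times as high as H1299, a log2 ratio (H1299 over HCT116) of -0.76 (-0.86 to -0.66). The highest cell had 10 PNMA5 counts in treated H1299 and 17 in treated HCT116.

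**Figure D1:**
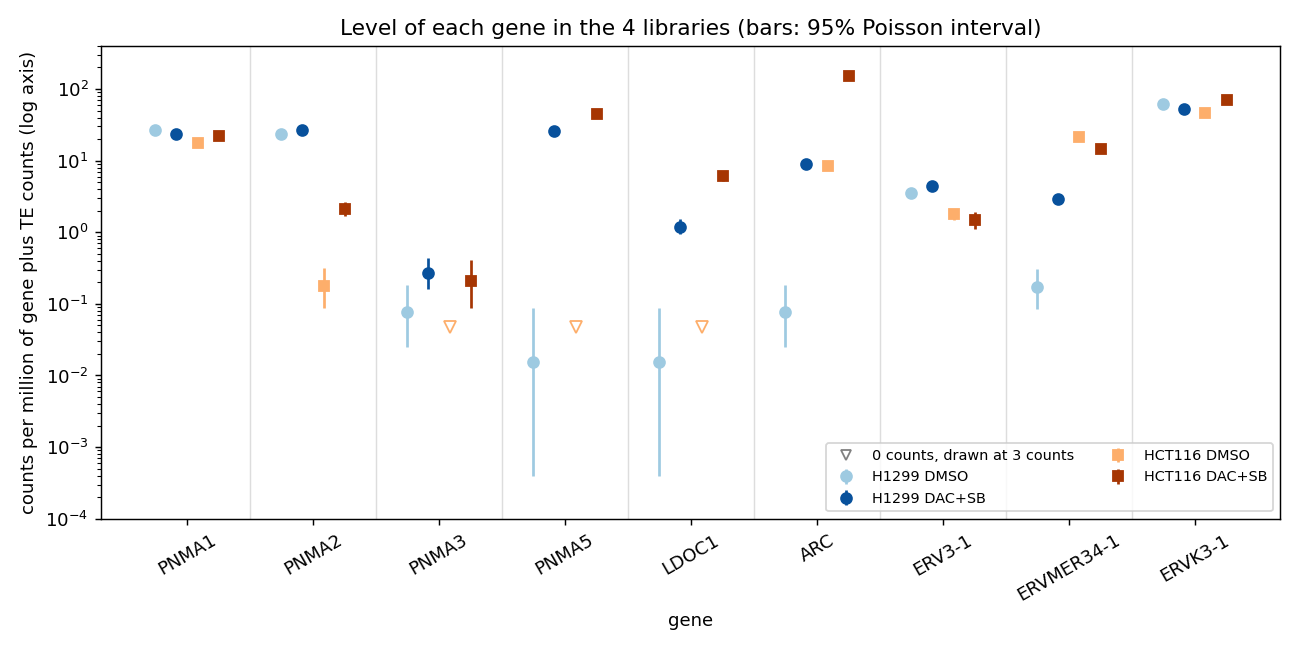
Level of each of the 9 genes (horizontal axis) in CPM of gene plus TE counts (vertical log axis) in the 4 libraries, 1 point per library with its 95% Poisson interval; open triangles mark libraries with 0 counts, drawn at the value of 3 counts. PNMA5 and LDOC1 had 1 count (0.0155 CPM) or none with DMSO and lie between 1.20 and 44.3 CPM with DAC+SB, while PNMA1 and ERVK3-1 lie close together in all 4 libraries.

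The promoter windows of these genes are shown because DNA methyltransferases, the targets of DAC, act on cytosines followed by guanine (CG, the CpG dinucleotide). RefSeq windows (GRCh38.p14, 250 bases before to 50 after an annotated start) were matched by symbol for 6 of the 9 genes, PNMA3, PNMA5, LDOC1, ERV3-1, ERVMER34-1 and ERVK3-1; PNMA1, PNMA2 and ARC had none. The following windows were chosen because PNMA5, LDOC1 and ERVMER34-1 had low counts in a control library and higher counts after treatment, and ERVK3-1 differed little. They are written 5′ to 3′ on the strand of the gene, all on the minus strand except ERVK3-1, with each CG in capitals. The first PNMA5 window is chrX:152994067-152994366, the second chrX:152992168-152992467, LDOC1 chrX:141177080-141177379, ERVMER34-1 chr4:52751376-52751675 and ERVK3-1 chr19:58305127-58305426.
PNMA5, first start: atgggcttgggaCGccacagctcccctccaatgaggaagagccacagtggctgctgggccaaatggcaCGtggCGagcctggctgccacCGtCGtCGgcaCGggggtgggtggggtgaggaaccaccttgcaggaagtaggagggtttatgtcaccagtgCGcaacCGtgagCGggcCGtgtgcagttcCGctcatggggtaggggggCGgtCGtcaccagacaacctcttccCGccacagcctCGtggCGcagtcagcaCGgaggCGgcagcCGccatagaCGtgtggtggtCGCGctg
PNMA5, second start: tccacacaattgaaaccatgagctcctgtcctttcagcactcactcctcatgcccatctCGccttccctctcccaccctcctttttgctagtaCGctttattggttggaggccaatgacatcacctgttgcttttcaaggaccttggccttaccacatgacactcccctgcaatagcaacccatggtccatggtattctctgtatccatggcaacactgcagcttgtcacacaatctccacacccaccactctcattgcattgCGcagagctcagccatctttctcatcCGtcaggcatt
LDOC1: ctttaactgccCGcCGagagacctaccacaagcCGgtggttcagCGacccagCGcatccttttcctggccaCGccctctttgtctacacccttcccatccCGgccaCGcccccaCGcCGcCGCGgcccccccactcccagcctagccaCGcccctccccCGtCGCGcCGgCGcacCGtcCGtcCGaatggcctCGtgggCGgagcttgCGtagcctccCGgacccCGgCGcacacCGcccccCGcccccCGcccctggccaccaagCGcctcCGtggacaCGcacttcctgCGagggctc
ERVMER34-1: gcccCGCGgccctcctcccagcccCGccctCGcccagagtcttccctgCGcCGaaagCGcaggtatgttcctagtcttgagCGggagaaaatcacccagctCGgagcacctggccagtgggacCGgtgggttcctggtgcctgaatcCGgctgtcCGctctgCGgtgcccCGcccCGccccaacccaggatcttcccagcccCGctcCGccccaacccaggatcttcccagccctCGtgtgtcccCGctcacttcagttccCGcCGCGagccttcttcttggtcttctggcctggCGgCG
ERVK3-1: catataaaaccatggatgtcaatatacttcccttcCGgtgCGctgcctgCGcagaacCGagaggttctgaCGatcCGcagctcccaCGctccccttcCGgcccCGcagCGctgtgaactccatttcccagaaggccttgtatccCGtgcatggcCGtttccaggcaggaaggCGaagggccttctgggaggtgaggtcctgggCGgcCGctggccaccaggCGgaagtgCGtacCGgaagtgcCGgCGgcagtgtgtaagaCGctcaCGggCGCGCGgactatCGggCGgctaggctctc

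The first PNMA5 window holds 23 CG and is 66.3% G or C, and the second holds 4 CG and is 50.7% G or C; a further start, whose window also holds 4, lies a few bases from the second. LDOC1 has 34 CG, ERVMER34-1 24, ERVK3-1 27 and PNMA3 41. The ERV3-1 windows hold 9 and 4. Over all 35114 windows of this length the median was 14 CG and the quartiles were 4 and 28. Of all windows, 64.2% had fewer CG than the first PNMA5 window, 24.5% fewer than the second, 84.4% fewer than LDOC1, 66.1% fewer than ERVMER34-1, 71.8% fewer than ERVK3-1 and 93.3% fewer than PNMA3. More CG than the median window were therefore found both for LDOC1, with a large ratio, and for ERVK3-1, with a small one. The hexamer GGGCGG, searched on both strands and overlapping 1 CG, occurs in 45.0% of all windows and in the windows of PNMA3, LDOC1, ERVMER34-1, ERVK3-1, the first of PNMA5 and 1 of ERV3-1. TATAAA, searched likewise, occurs in 11.5% of all windows and in those of ERVK3-1 and 1 of ERV3-1. The count table carries no coordinates, so which start a count came from was not determined, and methylation was not measured.

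LDOC1, which encodes a small leucine zipper protein derived from gag, lies elsewhere on the X chromosome (141175745 to 141177125, minus strand). It had 1 count in H1299 DMSO (0.0155 CPM) and 75 with DAC+SB (1.20 CPM, 0.945 to 1.51), a log2 ratio of 6.28 (3.75 to 11.60). That ratio was 4.54 without the 5% of cells with most counts and 7.35 as a mean over cells. HCT116 had 0 counts with DMSO (exact interval up to 0.0589 CPM) and 234 with DAC+SB (6.01 CPM, 5.27 to 6.83), so it was at least 126-fold higher than the floor, with an exact lower limit of 6.66 on the log2 scale. Without its numbered feature 1, which was not listed with DMSO, 61 counts remained, with a log2 bound of 5.03. LDOC1 was then no longer above the minimum of 100 counts. Controls and treated libraries did not overlap in either line. The treated HCT116 level was 5.00 times that of treated H1299, the same order of the lines as for PNMA5. PNMA3, whose protein has a zinc knuckle like that of retroviral gag, lies in the same part of the X chromosome as PNMA5 (153056409 to 153060467, plus strand). It stayed near the limit of detection, with 5 and 17 counts in H1299 (0.0775 and 0.272 CPM) and 0 and 8 in HCT116 (exact interval up to 0.0589, and 0.206 CPM). The log2 ratio of PNMA3 was 1.81 (0.32 to 3.61) in H1299, and in HCT116 its 8 counts were 4.29 times the floor, with an exact lower limit of 1.46 on the log2 scale. PNMA3 thus remained scarce in the libraries in which PNMA5, 62354 bases away, had 1631 and 1724 counts.

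ARC, an immediate early gene of neurons whose protein forms the capsid-like particles named above, differed most between the control lines together with PNMA2 and ERVMER34-1. It lies on chromosome 8 (142611044 to 142614472, minus strand). H1299 had 5 counts with DMSO (0.0775 CPM, 0.0252 to 0.181) and 566 with DAC+SB (9.07 CPM, 8.33 to 9.84). HCT116 had 532 counts with DMSO (8.49 CPM, 7.79 to 9.25) and 5904 with DAC+SB (152 CPM, 148 to 156). The treated library was above its control in both lines, and treated H1299 reached about the level that HCT116 had with DMSO, where the intervals overlap. The log2 ratio was 6.87 (5.64 to 8.50) in H1299 and 4.16 (4.03 to 4.29) in HCT116. The H1299 ratio minus the HCT116 ratio was 2.71 (1.44 to 3.99) on the log2 scale, although HCT116 had the higher level under either treatment, 110 times with DMSO and 16.7 times with DAC+SB.

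PNMA1 and PNMA2, the family members that are targets of paraneoplastic antibodies, were already transcribed in H1299 without treatment. PNMA1 (chromosome 14, 73711783 to 73714372, minus strand) had 1714 and 1468 counts in H1299 (26.6 and 23.5 CPM, DMSO first) and 1102 and 853 in HCT116 (17.6 and 21.9 CPM). Its log2 ratios were -0.18 (-0.28 to -0.07) and 0.32 (0.19 to 0.45), so the 4 libraries lay within 1.51-fold. PNMA2 (chromosome 8, 26504686 to 26514092, minus strand) had 1509 and 1693 counts in H1299 (23.4 and 27.1 CPM), a log2 ratio of 0.21 (0.11 to 0.31). In HCT116 it had 11 counts with DMSO (0.176 CPM, 0.0877 to 0.314) and 82 with DAC+SB (2.11 CPM, 1.68 to 2.61), a log2 ratio of 3.58 (2.67 to 4.64). Of the 82 treated counts 40 were in feature 1, which was not listed with DMSO, and without it the ratio was 2.62 (1.64 to 3.73). PNMA2 was 133 times as high in H1299 as in HCT116 with DMSO and 12.9 times with DAC+SB. The order of the lines was therefore the reverse of that of ARC.

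The endogenous retrovirus genes ERV3-1, ERVMER34-1 and ERVK3-1 did not move alike. ERVMER34-1 (chromosome 4, 52722618 to 52751640, minus strand) had 11 counts in H1299 DMSO (0.170 CPM, 0.0851 to 0.305) and 180 in H1299 DAC+SB (2.88 CPM, 2.48 to 3.34), a log2 ratio of 4.08 (3.21 to 5.11). In HCT116 it had 1351 counts with DMSO (21.6 CPM, 20.4 to 22.7) and 573 with DAC+SB (14.7 CPM, 13.5 to 16.0), a log2 ratio of -0.55 (-0.69 to -0.41). The gene was thus higher with treatment in the line where it was scarce and lower in the line where it was abundant, and the lines came from 127 times apart with DMSO to 5.11 times apart with DAC+SB. The H1299 values rest on 11 control counts, with numbered features that were not listed there summed as 0; over features listed in both libraries the H1299 log2 ratio was 2.57, with 63 treated counts, and the gene no longer reached 100 counts. Relative to the median of all genes in HCT116, which was itself at -0.23, its value was -0.32. The difference between the lines in the log2 ratio was 4.63 (3.74 to 5.52).

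ERVK3-1 (chromosome 19, 58305319 to 58315663, plus strand) was present at similar levels throughout. It had 3930 and 3236 counts in H1299 (60.9 and 51.8 CPM, DMSO first) and 2866 and 2707 in HCT116 (45.8 and 69.5 CPM), with log2 ratios of -0.23 (-0.30 to -0.17) and 0.60 (0.53 to 0.68). ERV3-1 (chromosome 7, 64990809 to 65006743, minus strand) had 227 and 279 counts in H1299 (3.52 and 4.47 CPM) and 111 and 57 in HCT116 (1.77 and 1.46 CPM). Its log2 ratios were 0.35 (0.09 to 0.60) and -0.28 (-0.76 to 0.20), so in HCT116 the libraries did not differ beyond counting error. Most counts near ERV3-1 were deposited under a name joined with ZNF117, a zinc finger gene that overlaps it. With that name added ERV3-1 had 1588 and 2370 counts in H1299 and 688 and 514 in HCT116, of which 83.9% to 88.9% were joined counts, and the log2 ratios became 0.63 (0.53 to 0.72) and 0.27 (0.10 to 0.43). The sign in HCT116 therefore depended on counts that cannot be assigned to either gene. ERVK3-1 also had joined counts, 13.1% to 20.1% of its total, and adding them gave log2 ratios of -0.24 and 0.55.

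**Figure D2:**
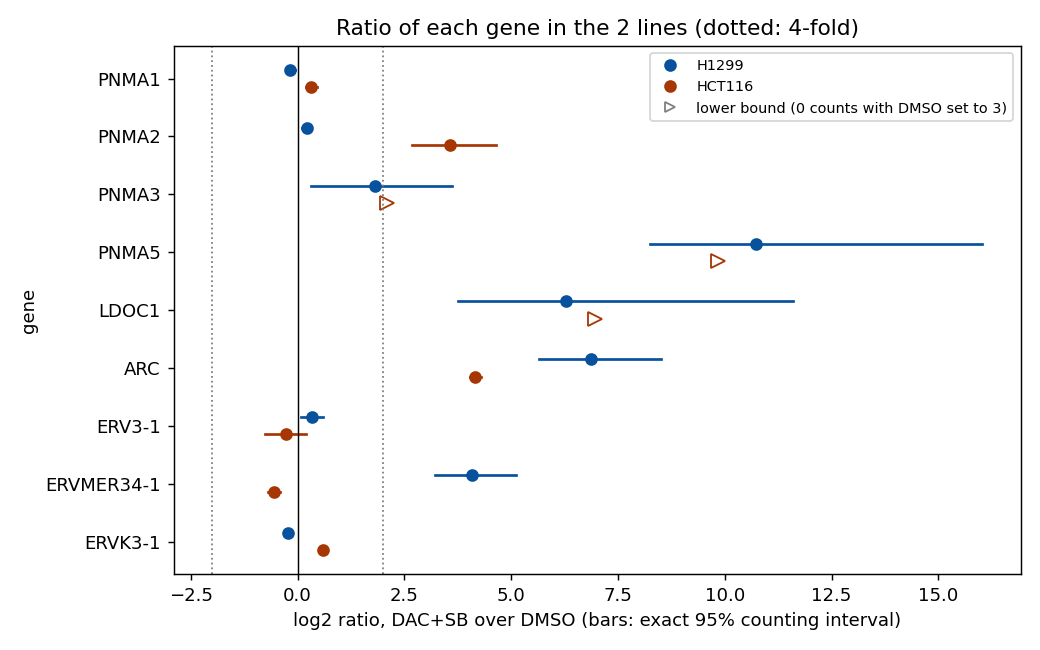
Log2 ratio of DAC+SB over DMSO (horizontal axis) for each gene (vertical axis) in H1299 and HCT116, with exact 95% counting intervals; open triangles are lower bounds and dotted lines mark a 4-fold difference. PNMA5 and ARC lie beyond 4-fold in both lines, ERVMER34-1 lies at 4.08 in H1299 and -0.55 in HCT116, and PNMA1, ERV3-1 and ERVK3-1 lie within 1 of 0 in both.

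A gene was counted as higher or lower if it differed at least 4-fold and had at least 100 counts in the higher library of the line. Of the 9 genes, 7 reached 100 counts in H1299, and PNMA5, ARC and ERVMER34-1 were higher there. The share of all 14610 such H1299 genes that were at least 4-fold higher was 11.0%. In HCT116 7 genes reached 100 counts, and PNMA5, LDOC1 and ARC were higher, beside 9.63% of 13539 genes. None of the 9 was at least 4-fold lower in either line, where 0.349% of all H1299 genes and 3.69% of all HCT116 genes were. As the genes were selected with these ratios known, nothing is read from their number. The median log2 ratio of the genes that reached 100 counts was 0.35 in H1299 and 0.60 in HCT116, and over all genes it was -0.07 and -0.23. Nothing is read from these medians either, for the same reason. Apart from ARC in HCT116, each gene called higher had at most 11 counts with DMSO in that line. Reaching 100 counts put it past 4-fold by necessity. The genes below 100 counts were LDOC1 and PNMA3 in H1299 and PNMA2 and PNMA3 in HCT116, whose values are given above.

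The table splits some genes into numbered features, which were listed only from 10 counts in a library, and an unnumbered rest; what the numbers stand for is not given in the labels. PNMA5 had 1335 unnumbered counts and 296 in feature 1 in treated H1299, and 1270 and 454 in treated HCT116, so the unnumbered counts alone showed the increase. LDOC1 had 64 unnumbered counts and 11 in feature 1 in treated H1299, but 61 and 173 in treated HCT116. ARC in HCT116 had 352 unnumbered counts with DMSO and 3077 with DAC+SB, a log2 ratio of 3.81 (3.65 to 3.98), and 64 and 2827 in feature 1, a log2 ratio of 6.15 (5.79 to 6.53). Feature 1 of ARC therefore increased more than the rest of the gene, and ARC feature 2 was listed only in HCT116 DMSO, with 116 counts. The features of ERVMER34-1 in HCT116 also differed from each other. Its unnumbered counts were 649 with DMSO and 224 with DAC+SB (log2 ratio -0.85, -1.07 to -0.63), those of feature 1 were 372 and 121 (-0.93, -1.24 to -0.63), and those of feature 2 were 330 and 228 (0.15, -0.10 to 0.40).

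An unlisted feature is not a count of 0 but was summed as one, which touches each of the members past 4-fold and ended the call for 2 of them. ERVMER34-1 features 1 and 2 had 35 and 82 counts in treated H1299 and were not listed in H1299 DMSO. Over features listed in both libraries ERVMER34-1 had 11 counts with DMSO and 63 with DAC+SB (log2 ratio 2.57, 1.63 to 3.64), under the limit of 100. This comparison kept unnumbered counts even where 1 library had none, as for LDOC1 and PNMA5 in HCT116 DMSO. LDOC1 in HCT116 also fell under 100 in it, as given above. PNMA1 feature 1, with 230 counts in treated H1299, was not listed in H1299 DMSO, and without it the log2 ratio of PNMA1 there was -0.42. PNMA5 and ARC were at least 4-fold higher in both lines in this comparison as well, with the log2 bound of PNMA5 in HCT116 at 9.41 and the log2 ratio of ARC there at 4.51.

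**Figure D3:**
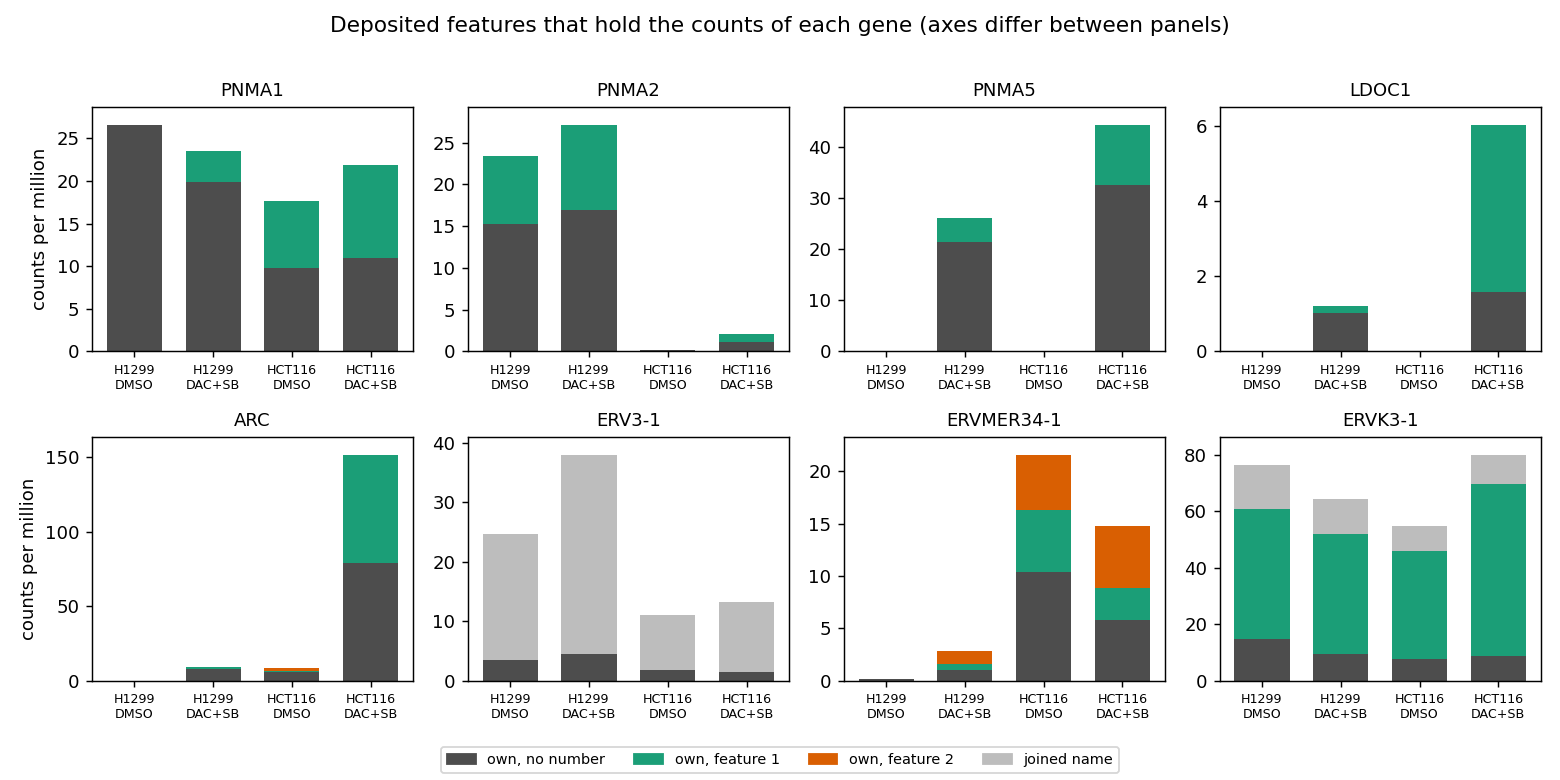
Level in CPM (vertical axis, from 0, a scale of its own in each panel) of 8 of the genes in the 4 libraries (horizontal axis), stacked by deposited feature: counts of the gene without a number, its numbered features, and names joined with another gene. ERV3-1 is mostly joined counts in every library, feature 1 makes up a larger part of ARC in HCT116 DAC+SB than in the other libraries, and LDOC1 consists mostly of feature 1 in HCT116 DAC+SB.

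The sums came from different numbers of cells. PNMA5 was counted in 1 of 3578 H1299 DMSO cells (0.0279%, 0.000708 to 0.156) and 920 of 3726 treated cells (24.7%, 23.3 to 26.1). In HCT116 it was counted in 0 of 3658 DMSO cells (a floor of 3 cells is 0.0820%, and the exact interval reaches 0.101%), and in 1063 of 4327 treated cells (24.6%, 23.3 to 25.9). Treated cells with exactly 1 count numbered 537 in H1299 and 674 in HCT116, and 167 and 146 cells had 3 or more. ARC was counted in 50.7% (49.2 to 52.2) of treated HCT116 cells, against 11.7% with DMSO, 11.9% in treated H1299 and 0.140% in H1299 DMSO. In treated HCT116, 712 cells had 3 or more ARC counts and the highest cell had 66. LDOC1 was counted in 1.64% of treated H1299 and 4.90% of treated HCT116 cells. ERVMER34-1 was counted in 0.307% and 4.32% of H1299 cells (DMSO first) and 26.6% and 11.3% of HCT116 cells. No cell type that lacks these genes was analysed here, so the part of free RNA in these shares was not measured.

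Depth differed between the libraries, so each cell was thinned to 3300 counts, which left out 402 shallow cells of treated HCT116. PNMA5 was then seen in 7.17% (6.36 to 8.04) of treated H1299 and 12.8% (11.8 to 13.9) of treated HCT116 cells, and in no DMSO cell. ARC was seen in 30.3% (28.9 to 31.8) of treated HCT116 cells, 2.79% with DMSO and 3.27% in treated H1299. For PNMA1, ERVK3-1 and ERV3-1 in HCT116 thinning turned the order of the shares. PNMA1 was counted in 21.4% of DMSO and 16.7% of DAC+SB cells at full depth and in 4.87% and 7.26% after thinning, and ERVK3-1 in 45.9% and 38.6%, then 13.5% and 18.6%. For these genes the thinned order is that of the CPM values. ERV3-1 was counted in 2.52% and 1.27% of cells at full depth and in 0.547% and 0.688% after thinning, against its CPM of 1.77 and 1.46, so no order is read from its shares. ERVMER34-1 kept its order in HCT116, with 6.45% (5.68 to 7.30) of DMSO and 5.17% (4.50 to 5.91) of DAC+SB cells after thinning. These intervals overlap, and the gap was smaller than at full depth. At least 1 of the 9 genes was seen in 30.8% and 35.4% of thinned H1299 cells and in 26.2% and 57.6% of thinned HCT116 cells, DMSO first. In HCT116 ARC alone was seen in 2.79% and 30.3% of thinned cells. Any of ERV3-1, ERVMER34-1 and ERVK3-1 was seen in 19.8% and 23.4%, and ERVK3-1 alone in 13.5% and 18.6%.

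**Figure D4:**
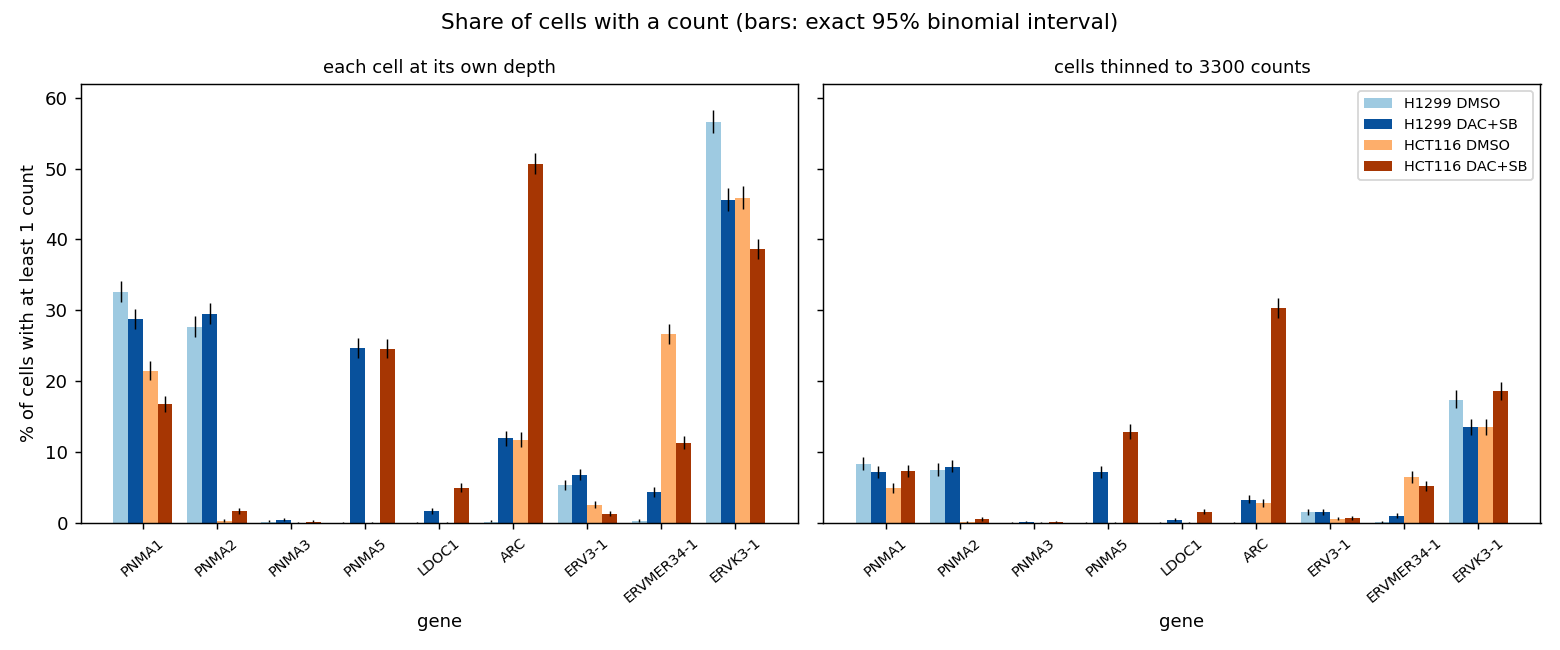
Share of cells with at least 1 count (vertical axis, percent) of each gene (horizontal axis) in the 4 libraries, at full depth (left) and after thinning to 3300 counts (right), with exact 95% binomial intervals. ARC in HCT116 DAC+SB stands at 50.7% and 30.3%, PNMA5 is counted in about equal shares of treated cells at full depth (24.7% and 24.6%) and in 7.17% and 12.8% after thinning.

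Within the treated libraries, the genes were compared between cells with a low and a high share of TE counts, in 3 equal groups made on thinned cells. Cells of 1 library are not replicates, so this is a description. The intervals of these levels are for counts summed over cells and leave out variation between cells, so they are too narrow for comparing groups of cells. In treated HCT116 ARC was at 123 CPM (118 to 129) in the group with least TE, 151 (144 to 158) in the middle and 188 (180 to 196) in the group with most TE. The median depth of these groups was 10007.0, 9073.5 and 8111.0 counts. Within shallow, middle and deep cells, again 3 equal groups, a comparison added after seeing the data, ARC was at 139 and 272, 139 and 196, and 107 and 154 CPM in TE-low and TE-high cells. ARC was thus higher in TE-high than in TE-low cells at each depth, with intervals that did not overlap. In treated H1299 ARC was at 8.49 (7.29 to 9.84) and 8.89 (7.66 to 10.3) CPM in TE-low and TE-high cells, with overlapping intervals.

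PNMA5 was higher in TE-high than in TE-low cells of both treated lines, at 20.9 (19.0 to 22.9) against 31.1 (28.7 to 33.6) CPM in H1299 and 37.5 (34.3 to 40.9) against 49.9 (45.9 to 54.1) CPM in HCT116. At each depth TE-high cells had more than TE-low cells, but in H1299 cells of middle depth (24.0 and 25.7 CPM) and HCT116 cells of low and middle depth the intervals overlapped. ERVK3-1 went the other way in H1299, from 58.0 (54.7 to 61.3) to 43.8 (41.0 to 46.8) CPM. Within shallow, middle and deep H1299 cells it was at 38.8 and 22.5, 51.3 and 39.0, and 70.6 and 55.7 CPM in TE-low and TE-high cells. The intervals did not overlap at any depth. In H1299 ERVK3-1 also varied with depth itself. In treated H1299 it was at 29.1 CPM in the shallow, 45.4 in the middle and 65.0 in the deep cells, against 46.1, 60.6 and 67.9 with DMSO. The level of PNMA5 in treated H1299 lay between 24.9 and 27.3 CPM over the same groups.

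Cells with and without PNMA5 were compared for the other members. In thinned treated HCT116 cells ARC was seen in 31.0% of 504 cells with PNMA5 and 30.3% of 3421 cells without. In treated H1299 PNMA2 was seen in 8.99% of 267 cells with PNMA5 and 7.86% of 3459 without, and PNMA1 in 7.49% and 7.08%. ERVK3-1 was seen there in 10.5% and 13.7%, ERV3-1 in 0.749% and 1.59%, ERVMER34-1 in 0% and 1.10% and LDOC1 in 0% and 0.463%. The exact intervals of each of these pairs overlapped, and at 3300 counts per cell a small difference would not be detectable.

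A wider list of 35 genes of retroelement origin was described in the same way; 24 had a name of their own in the table, several under an older symbol. In H1299 13 of them reached 100 counts, of which 3 were at least 4-fold higher and 0 lower, and in HCT116 11 did, of which 5 were higher and 0 lower, beside the shares of all genes given above. Their median log2 ratio was 0.56 in H1299 and 1.14 in HCT116. PNMA7A and ERVW-1 in H1299 and CCDC8 and RTL8B in HCT116 had at most 16 counts with DMSO. Reaching 100 counts with DAC+SB put these past 4-fold by necessity, so nothing is read from these numbers or medians. PEG10, an imprinted gag-pol gene needed for the placenta, was at 272 and 1306 CPM in H1299 (log2 ratio 2.27, 2.24 to 2.29) and at 6.93 and 173 CPM in HCT116 (4.64, 4.50 to 4.78). PNMA7A, listed as ZCCHC12, had 0 and 324 counts in H1299, 112 times the floor of 3 counts, with an exact lower limit of 6.50 on the log2 scale. In HCT116 it had 209 and 1753 counts (3.75, 3.55 to 3.97). Among genes of the list that reached 100 counts in each line, PNMA7A and PEG10 were the 2 past 4-fold in both. ERVW-1, whose envelope protein syncytin-1 fuses trophoblast cells, went from 1 to 317 counts in H1299 (8.36, 5.87 to 13.66) and from 1 to 27 in HCT116.

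In HCT116 the other genes past 4-fold were CCDC8, a member of the PNMA family (16 to 288 counts, log2 ratio 4.86), RTL5 (178 to 466 counts, 2.07) and RTL8B, listed as FAM127C (0 to 125 counts, at least 67.0-fold). In H1299 the log2 ratios of these were 0.34, 1.86 and -0.02, and RTL8B had 842 counts there with DMSO. RTL8A, RTL8B and RTL8C are near-identical copies whose reads may have been split among them; RTL8A, listed as FAM127B, had log2 ratios of -0.16 and -1.11 and RTL8C of 0.29 and 0.04, H1299 first. PNMA8A, listed as PNMAL1, was, like PNMA2, scarce in HCT116 alone, with 850 and 699 counts in H1299 (-0.23) and 1 and 98 in HCT116. MOAP1, a PNMA family member that binds the cell death protein BAX, had log2 ratios of 0.58 and 1.14, RTL6 at -0.45 and -0.84, KRBA2 at 0.56 and -0.11 and GIN1 at 0.84 and 0.05, H1299 first.

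**Figure D5:**
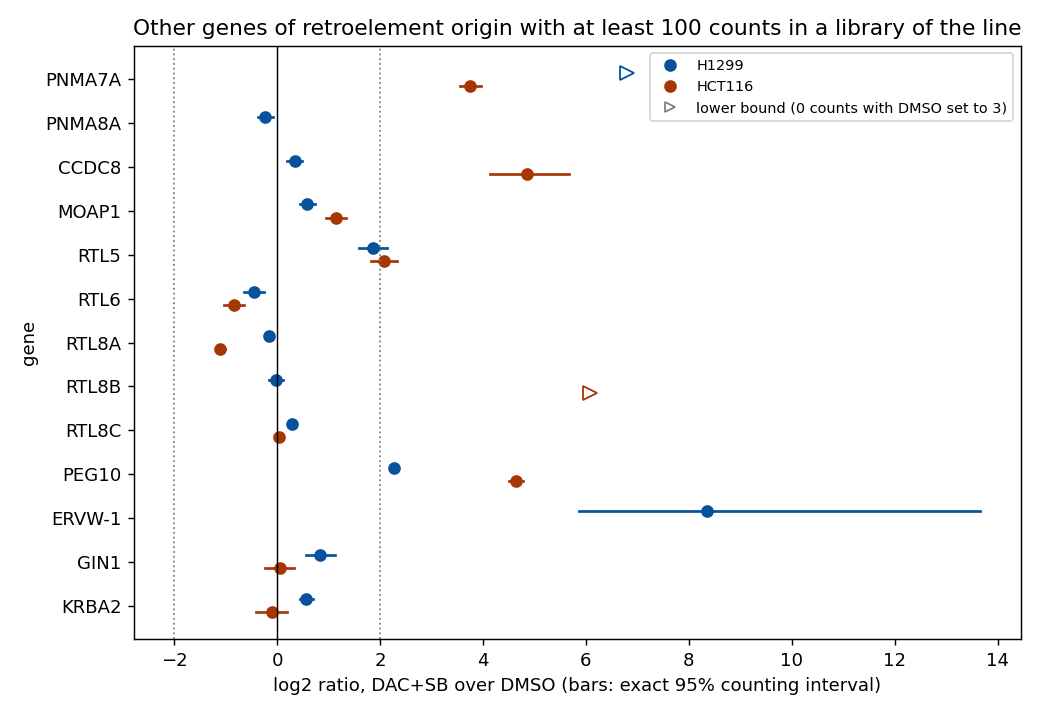
Log2 ratio of DAC+SB over DMSO (horizontal axis) of the other genes of retroelement origin that reached 100 counts in the line (vertical axis), in H1299 (blue) and HCT116 (brown), with exact 95% counting intervals; open triangles are lower bounds and dotted lines mark 4-fold. PNMA7A and PEG10 lie beyond 4-fold in both lines, ERVW-1 in H1299, and CCDC8, RTL5 and RTL8B in HCT116.

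The genes whose levels over the 4 libraries were most like those of PNMA5 (Euclidean distance in log2(CPM + 1)) were BRDT, a bromodomain protein of male germ cells, at a distance of 0.383, the metallothionein gene MT3 at 0.514, and SYCP3, a protein of the meiotic chromosome axis, at 0.573. BRDT had 0 and 1719 counts in H1299 and 4 and 1330 in HCT116, DMSO first. For ARC they were TUBA4A (0.971), NGFR (1.24) and CDKN1C (1.32), for LDOC1 CHST8 (0.0970), RP11-540O11.6 (0.169) and HBA2 (0.223), and for ERVMER34-1 SLC30A3 (0.551), RHOD (0.593) and MARC1 (0.620). With 4 libraries such likeness rests on 4 values per gene.

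The coding neighbours of PNMA5 in the RefSeq gene table stayed within 4-fold or had few counts. ZNF185, 15343 bases away, had 217 and 73 counts in HCT116 (log2 ratio -0.89), and NSDHL, an enzyme of cholesterol synthesis, had log2 ratios of 0.16 and 0.01, H1299 first. PNMA6A, between PNMA3 and the melanoma antigen gene MAGEA1, had 79 and 71 counts in H1299 and 0 and 10 in HCT116, and MAGEA1 had 1565 and 1350, and 3 and 441. PNMA2 lies 159 bases from DPYSL2, whose log2 ratio was -0.26 in H1299 and -1.38 in HCT116, where PNMA2 was at 3.58, or 2.62 over shared features. JRK and ADGRB1 beside ARC lay between -0.26 and 1.28. By contrast, SPANXB1 and SPANXC, testis genes on either side of LDOC1, had 4 and 396 and 2 and 322 counts in HCT116, log2 ratios of 7.32 and 8.02. In H1299, where LDOC1 had 1 and 75 counts, SPANXB1 had 3 and 85 and SPANXC 0 and 2. SPANX genes are near-identical copies, so their counts are uncertain.

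TE families that carry names related to ERV3-1, ERVMER34-1 and ERVK3-1 each had at most 3.98 CPM in any library. MER34 had 79 and 95 counts in H1299 and 61 and 113 in HCT116, DMSO first, and HERVK3 had 95 and 63, and 52 and 65. In CPM, MER34 was at 1.22 and 1.52 in H1299 and 0.974 and 2.90 in HCT116, and HERVK3 at 1.47 and 1.01, and 0.830 and 1.67. HERV3 was listed only in treated H1299, with 23 counts, and LTR3B only in treated HCT116, with 95 counts. LTR3A and LTR3B_ were listed only in the treated libraries, with 167 and 63, and 54 and 155, H1299 first. MER34A, MER34A1 and the other MER34 names were each unlisted in at least 1 library, and an unlisted family is not a count of 0. The loci of ERV3-1, ERVMER34-1 and ERVK3-1 themselves were not identified among them, as TE loci carry no coordinates.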

How the data were processed

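Both deposited tables hold raw counts per feature and cell, 1 table for genes and 1 for TE, and list no zeros, per the file headers and values. CASAVA, STAR and the builds GRCh38 and hg38 are named in the submitters' processing notes, with no role given; for the annotation, the cell filter and whether molecular identifiers were counted, the sources used here say nothing. The 15289 cells were assigned to 4 libraries by the end of their names. No value column was left unassigned. Features naming 1 gene were summed per gene and library; 2419 joined names entered only as an alternative, and they hold 11.4% to 18.3% of gene counts. All cells were kept and no doublet caller was run. For a gene at 0 the ratio was computed against 3 counts as a bound, which assumes that no unlisted numbered feature had counts. Ratios carry conditional binomial intervals, sums Poisson intervals, shares Clopper-Pearson intervals, and differences between lines approximate normal intervals on log counts. No group had replicates, so no p-value was computed. The ratio computation was tested on simulated data.

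The genes and lists were chosen with earlier results of these data known: all 9 genes are named, together with the genes of the wider list that reached 100 counts, the 3 nearest patterns for each gene past 4-fold, and examples, chosen after their values were seen, from the 2 nearest coding genes on each side and from marker lists of both lines and of neurons. RefSeq synonyms give FAM127B as RTL8A and FAM127C as RTL8B, in place of the reverse pairing in the plan. Gene positions are those of GENCODE 29 on GRCh38 matched by symbol, and promoter windows are those of RefSeq on GRCh38.p14. Protein sequences were not used here. Python 3.11.15, numpy 2.4.6, scipy 1.17.1 and pandas 2.3.3 were used.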

Additional observations from a re-analysis of the deposited data

Results flagged for a closer look

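In 3 genes the treated library lay above its control in 1 line and below it in the other, with both counting intervals on 1 side of 0. With 1 library per group the difference between the lines was not tested. ERVMER34-1 had log2 ratios of 4.08 in H1299 and -0.55 in HCT116. The H1299 value was 2.57, with 63 treated counts, over numbered features listed in both libraries, and feature 2 in HCT116 was at 0.15 (-0.10 to 0.40). PNMA1 had -0.18 in H1299 and 0.32 in HCT116, ERVK3-1 had -0.23 and 0.60 in the same order; both were less than 4-fold and, in H1299, within the middle range of all genes, whose quartiles were -0.51 and 0.58. In HCT116 the quartiles were -0.85 and 0.49, and ERVK3-1 lay above them. The unnumbered counts alone gave 0.18 (-0.00 to 0.36) for PNMA1 and 0.20 (-0.01 to 0.40) for ERVK3-1 in HCT116, with intervals that reach 0. Feature 1 of these genes was at 0.47 (0.28 to 0.66) and 0.67 (0.59 to 0.76) there.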

How the results depend on the processing

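No replicate could be left out and no paired analysis was possible because each group was 1 library. Over 8 alternatives to each log2 ratio of the 9 genes (other denominators, centring on the median of all genes, joined names, shared numbered features, without the 5% of cells with most counts, without cells above 25% mitochondrial counts, mean over cells), 128 of 144 values stayed within the main interval and 16 moved beyond it. None of the 144 changed sign among ratios whose interval excluded 0; ERV3-1 in HCT116, whose interval included 0, went from -0.28 to 0.27 with joined names. The genes past 4-fold were the same ones under each of these 8 except the restriction to shared numbered features, which dropped ERVMER34-1 in H1299 and LDOC1 in HCT116. Without a minimum count, 4 of the 9 genes were at least 4-fold higher in H1299, LDOC1 being added, and 5 of the 9 in HCT116, PNMA2 and PNMA3 being added, PNMA3 with 8 counts against the floor. Over all genes with a ratio, that setting gave 5539 of 27804 higher and 397 lower in H1299, and 5908 of 26819 higher and 868 lower in HCT116. A 2-fold limit gave 2673 and 1072, and 2192 and 2706. Shared numbered features gave 794 higher in HCT116, and centring gave 301 lower there. Of 108 alternative shares of cells, 70 moved beyond their interval; thinning and a minimum of 2 counts can only lower a cell's detection. PNMA3 in both lines, PNMA2 in HCT116 and LDOC1 in H1299 stayed under 100 counts, so their ratios carry wide counting intervals.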

Other observations

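Because PNMA genes and ARC are known from neurons, 10 neuronal markers were described beside them. In H1299 7 reached 100 counts and 5 were at least 4-fold higher with DAC+SB, beside 11.0% of all genes. In HCT116 7 did and 4 were higher, beside 9.63% of all genes, and none was 4-fold lower in either line. The 4 in HCT116 (ELAVL3, STMN2, NEFL and NEFM), and STMN2, NEFL and NEFM in H1299, had at most 15 counts with DMSO. Reaching 100 counts with DAC+SB put these past 4-fold by necessity, so nothing is read from these numbers. The neurofilament gene NEFM had 15 and 367 counts in H1299, DMSO first, and 0 and 1854 in HCT116; STMN2, a microtubule regulator of growing axons, had 0 and 495, and 12 and 1539; and ELAVL3, a neuronal RNA-binding protein, had 36 and 1534, and 3 and 865. The synaptic gene SNAP25 was at -0.59 and 1.23 on the log2 scale, and DCX, a marker of young neurons, had 0 counts in 3 libraries and 2 in treated HCT116. Of the summed level of the list, TUBB3 alone gave 108 and 180 CPM in H1299, and 70.9 and 193 CPM in HCT116.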
